A study of Mus musculus with 12 samples.

Results

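The cholesterol synthesis enzymes described here were 8 genes chosen by name from the mevalonate and sterol pathway: Hmgcs1, Sqle, Idi1, Fdps, Fdft1, Lss, Cyp51 and Dhcr7. A gene was measured through an array row (a probeset) whose annotation gives that symbol alone, and where a gene had more than 1 such row the brightest was kept. Of the 8 enzymes, 7 had such a row, each with exactly 1, among 22180 genes in all. The row that carries Idi1, the isomerase that makes the second of the pathway's C5 building blocks, is annotated with 2 gene symbols, so no value is given for it.

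Whole-transcript arrays were hybridised with cerebellar RNA of 12 mice, 1 array each, of which 6 lacked Ciz1. Ciz1 encodes a nuclear protein with roles in the start of DNA replication and in holding Xist RNA on the inactive X chromosome. The 4 groups held 3 mice each: wild-type males, wild-type females, knockout (Ciz1-/-) males and knockout females. The source names call the controls wild type and the extraction protocol writes Ciz1+/+, while their genotype field reads Ciz1+/-, so the controls are called wild type here as in the source names. The mice were 10 months old by the protocol, whereas the design text states 6 to 10 months. No treatment is named, nor do the labels state the strain, how the Ciz1 allele was made or any scan or extraction batch. All values are robust multi-array average (RMA) intensities, given here as log2 intensity, in which a difference of 1 is a doubling. The rows of different genes have different probes, so levels are compared between groups and never between genes.

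Cells build cholesterol from acetyl-CoA. Hmgcs1 joins acetyl-CoA and acetoacetyl-CoA into HMG-CoA, from which mevalonate is made; Idi1 and Fdps then make and join isoprenoid units into farnesyl diphosphate. Fdft1 (squalene synthase) commits farnesyl diphosphate to sterols, Sqle (squalene epoxidase) and Lss (lanosterol synthase) close the ring system, and Cyp51 and Dhcr7 act on lanosterol and later sterols, with Dhcr7 making cholesterol itself from 7-dehydrocholesterol. The blood-brain barrier keeps plasma cholesterol out of the brain, so brain cells make their own, oligodendrocytes for myelin above all and astrocytes for export to neurons. When sterols run low, the transcription factor SREBP-2 (gene Srebf2) leaves the endoplasmic reticulum with its escort Scap and raises transcription of the whole pathway, usually together with the CCAAT-binding factor NF-Y.

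Upstream sequences are shown for reference, since the pathway is known for sterol regulatory elements in its promoters; no measurement here bears on binding to them. RefSeq promoter sequences (GRCm38.p6) matched 5 of the 8 enzymes, namely Hmgcs1, Idi1, Lss, Cyp51 and Dhcr7. The 250 bases before the annotated start site are printed for the 3 measured enzymes with a single start site. Capitals mark matches to TCACNCCAC, the core of a sterol regulatory element, and to CCAAT, the NF-Y box, which reads ATTGG on the other strand. Both strands were searched, and neither motif contains the other. Only exact matches were marked, with any base allowed at N, so an element that departs from the pattern stays in lower case. The regions are chr13:119690101-119690350 on the plus strand for Hmgcs1, chr5:4104698-4104947 on the minus strand for Cyp51 and chr10:76531355-76531604 on the plus strand for Lss.
Hmgcs1: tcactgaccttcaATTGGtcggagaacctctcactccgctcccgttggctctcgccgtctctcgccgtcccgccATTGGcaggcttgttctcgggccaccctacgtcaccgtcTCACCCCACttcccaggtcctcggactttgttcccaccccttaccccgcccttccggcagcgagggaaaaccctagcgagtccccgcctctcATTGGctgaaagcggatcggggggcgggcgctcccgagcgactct
Cyp51: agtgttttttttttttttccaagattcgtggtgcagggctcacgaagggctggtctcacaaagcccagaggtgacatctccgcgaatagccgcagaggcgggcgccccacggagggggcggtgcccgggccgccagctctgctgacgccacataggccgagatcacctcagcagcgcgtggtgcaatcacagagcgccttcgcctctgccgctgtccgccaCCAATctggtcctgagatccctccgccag
Lss: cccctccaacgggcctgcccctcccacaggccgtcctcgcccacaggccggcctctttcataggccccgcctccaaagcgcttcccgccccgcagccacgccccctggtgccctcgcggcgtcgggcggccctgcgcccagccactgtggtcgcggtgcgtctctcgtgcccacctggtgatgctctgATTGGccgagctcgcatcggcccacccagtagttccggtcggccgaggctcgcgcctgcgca

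The Hmgcs1 window held 1 match to the sterol regulatory core, starting 137 bases before the start site on the forward strand, and 3 CCAAT boxes, all on the reverse strand, starting 237, 176 and 45 bases before it. Cyp51 held 1 CCAAT box, on the forward strand, 29 bases before its start, and Lss held 1 on the reverse strand at 62 bases. The upstream region of Idi1 held 2 CCAAT boxes on the reverse strand, at 45 and 14 bases. Dhcr7 has 3 annotated start sites, and a CCAAT box was found before the third of them only, once on each strand, at 85 and 49 bases. Over all 32851 RefSeq windows of this length, 1.05% held TCACNCCAC and 33.8% held CCAAT. A match of letters is a description of the window and not a measured binding site.

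Ciz1 itself was checked first. Its log2 intensity was 8.70 to 8.90 in the 6 wild-type mice and 6.82 to 7.32 in the 6 knockout mice, with no overlap, in accord with the labels (difference -1.64, SE 0.07; limma adjusted p = 1.42e-06). Markers of the cerebellum were bright: the granule cell gene Gabra6 and the Purkinje cell gene Calb1 lay at the 99.6 and 99.8 percentile of brightness over all genes. Array medians lay between 96.5 and 98.7 on the linear scale. Markers of choroid plexus, the secretory tissue beside the cerebellum, varied widely within every group, with a mean over 13 markers that ranged from -0.66 to 0.54 in the knockout females and from -0.18 to 0.91 in the wild-type males, relative to the mean of all arrays. The 7 enzymes lay between the 60.1 and the 90.5 percentile of brightness.

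In the comparison of knockout with wild-type cerebellum, none of the 7 enzymes passed the test. Sqle and Cyp51 had the largest differences over both sexes, at -0.14 and -0.13 in log2 intensity, and Dhcr7 and Lss were slightly higher on average. The 7 differences ran from -0.14 to 0.05, with a median of -0.05 against -0.0007 over all genes. By limma at an adjusted p under 0.05, 0 of 7 enzymes were called, where 0.0225% of all genes were (5 of 22180). At an unadjusted p under 0.05 there were 2 of 7 enzymes (Sqle and Cyp51), against 9.26% of all genes. Their values varied together over the 12 arrays (r = 0.86), so they are not 2 separate observations. The intervals limit what was missed in the average over both sexes. Across the 7 enzymes the 95% intervals of that knockout-to-wild-type ratio, not adjusted over genes, reached from 0.829 (Sqle) to 1.11 (Lss). Within a single sex they reached further, from 0.783 (Cyp51) to 1.25 (Dhcr7) in females and from 0.798 (Sqle) to 1.18 (Lss) in males. In whole tissue, fewer cells of a type and less RNA per cell cannot be told apart.

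**Figure D1:**
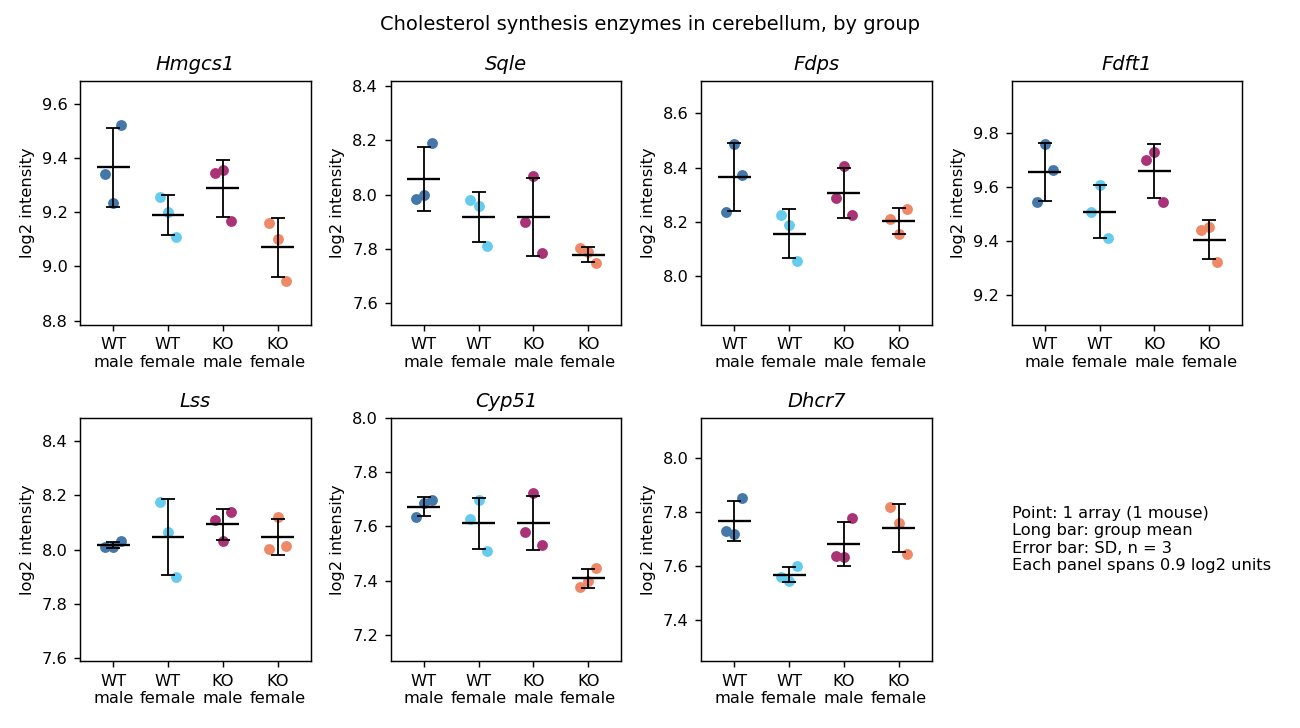
Log2 intensity of each enzyme (vertical axis, 0.9 log2 units in every panel) in the 4 groups (horizontal axis). Each point is 1 mouse, long bars are group means and error bars are the SD (n = 3). The knockout females lie lowest for Hmgcs1, Sqle, Fdft1 and Cyp51, and the groups of Lss overlap throughout.

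Hmgcs1, the cytosolic HMG-CoA synthase at the entry of the pathway, had log2 intensities of 9.34, 9.23 and 9.52 in the wild-type males, 9.26, 9.20 and 9.11 in the wild-type females, 9.34, 9.35 and 9.17 in the knockout males, and 9.16, 9.10 and 8.95 in the knockout females. The knockout females were the lowest group and all lay below every knockout male, though by a narrow gap. The wild-type and knockout groups of each sex overlapped. The knockout differed by -0.10 over both sexes (SE 0.06; limma adjusted p = 0.66), by -0.08 in males and by -0.12 in females. Neither sex passed (adjusted p = 0.969 and 0.75), and the effects of the sexes were not shown to differ (interaction -0.04, SE 0.13).

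Fdps, which makes farnesyl diphosphate and is the target of the bisphosphonate drugs, had 8.23, 8.49 and 8.37 in the wild-type males, 8.23, 8.19 and 8.05 in the wild-type females, 8.29, 8.40 and 8.22 in the knockout males, and 8.21, 8.15 and 8.25 in the knockout females. Here the wild-type females were the lowest group, narrowly below all wild-type males, and the knockout groups overlapped each other and their controls. Its difference between knockout and wild type was -0.0051 (SE 0.06; limma adjusted p = 0.987), the smallest of the 7, with opposite signs in males (-0.06) and females (0.05), neither of them passing.

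Fdft1, squalene synthase, had 9.54, 9.76 and 9.66 in the wild-type males, 9.51, 9.61 and 9.41 in the wild-type females, 9.70, 9.73 and 9.54 in the knockout males, and 9.44, 9.45 and 9.32 in the knockout females. In both genotypes the females were lower on average, and in the knockout every female lay below every male. Between genotypes it differed by -0.05 (SE 0.06; limma adjusted p = 0.819), with 0.003 in males and -0.10 in females.

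Sqle, squalene epoxidase, a rate-controlling step of the pathway, had 7.98, 7.997 and 8.19 in the wild-type males, 7.98, 7.96 and 7.81 in the wild-type females, 7.90, 8.07 and 7.78 in the knockout males, and 7.80, 7.79 and 7.75 in the knockout females. The knockout females were close together near the bottom of the range and all narrowly below the wild-type females. The knockout males spread across much of that range. The estimated difference was -0.14 in males (SE 0.08, limma adjusted p = 0.928) and -0.14 in females (SE 0.08, limma adjusted p = 0.696). Neither sex passed. Over 19 alternative settings the estimate ranged from -0.217 to -0.0736 in males and from -0.19 to -0.107 in females. Over both sexes the difference was -0.14 (SE 0.06), with an unadjusted p of 0.039 and a limma adjusted p of 0.522. That unadjusted p ranged from 0.00943 to 0.101 over 19 alternative settings.

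Lss, which closes squalene epoxide to lanosterol, had 8.01, 8.01 and 8.03 in the wild-type males, 8.18, 8.06 and 7.90 in the wild-type females, 8.11, 8.03 and 8.14 in the knockout males, and 8.004, 8.12 and 8.01 in the knockout females. It varied least of the 7 enzymes, by 0.28 log2 units from the lowest to the highest mouse, and none of its groups stood apart. The knockout differed by 0.04 (SE 0.05; limma adjusted p = 0.86).

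Cyp51, the lanosterol 14-alpha demethylase, had 7.63, 7.69 and 7.70 in the wild-type males, 7.63, 7.70 and 7.51 in the wild-type females, 7.58, 7.72 and 7.53 in the knockout males, and 7.38, 7.40 and 7.45 in the knockout females. All 3 knockout females lay below the other 9 mice, which overlapped with one another. The difference in females was -0.20 (SE 0.07), a ratio of wild type to knockout of 1.15, with an unadjusted p of 0.0119 and a limma adjusted p of 0.471. In males it was -0.06 (SE 0.07; limma adjusted p = 0.969), and the sexes were not shown to differ (interaction -0.14, SE 0.10; limma adjusted p = 0.998). Over both sexes Cyp51 differed by -0.13 (SE 0.05; limma adjusted p = 0.471), with an unadjusted p of 0.0184 that stayed between 0.00551 and 0.0498 over the 19 settings.

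Dhcr7, which makes cholesterol in the last step of one of the late branches and is mutated in Smith-Lemli-Opitz syndrome, had 7.73, 7.72 and 7.85 in the wild-type males, 7.56, 7.54 and 7.60 in the wild-type females, 7.64, 7.63 and 7.78 in the knockout males, and 7.82, 7.76 and 7.64 in the knockout females. The 3 wild-type females were the lowest mice, below all wild-type males and all knockout females. The knockout was higher by 0.17 in females (SE 0.07; limma adjusted p = 0.533) and lower by 0.08 in males (SE 0.07; limma adjusted p = 0.953). The interaction was 0.26 (SE 0.10), with an unadjusted p of 0.0206 and a limma adjusted p of 0.99, so the sexes were not shown to differ once all genes were counted. Over both sexes the difference was 0.05 (SE 0.05; limma adjusted p = 0.805).

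Within each sex, then, 0 of 7 enzymes were called by limma in males and 0 of 7 in females, and 0.0225% of all genes were called in each. The unadjusted p was under 0.05 for 0 of 7 enzymes in males, against 5.42% of all genes, and for 2 of 7 in females (Cyp51 lower, Dhcr7 higher), against 8.49%. In females that p ranged from 0.00487 to 0.0559 for Cyp51 over the 19 settings (under 0.05 in 18) and from 0.0109 to 0.101 for Dhcr7 (under 0.05 in 15). For Cyp51 it was 0.0559 without wild-type female 2, and for Dhcr7 0.0563 and 0.0667 without wild-type female 1 or 2 and 0.101 and 0.0636 without knockout female 1 or 2. For the interaction 0 enzymes were called by limma and 0% of all genes, and 1 of 7 (Dhcr7) had an unadjusted p under 0.05, against 4.82% of all genes. The 3 knockout females lay entirely outside the 3 wild-type females for 3 of 7 enzymes (Sqle and Cyp51 below, Dhcr7 above), a separation seen in 14.9% of all genes. In males this held for 0 of 7 enzymes and for 10.3% of all genes. In females the gap was narrow for Sqle, with 7.801 in the highest knockout mouse and 7.812 in the lowest wild-type mouse. Sqle and Cyp51 varied together over the 12 arrays, so the 3 enzymes are not 3 separate observations.

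**Figure D2:**
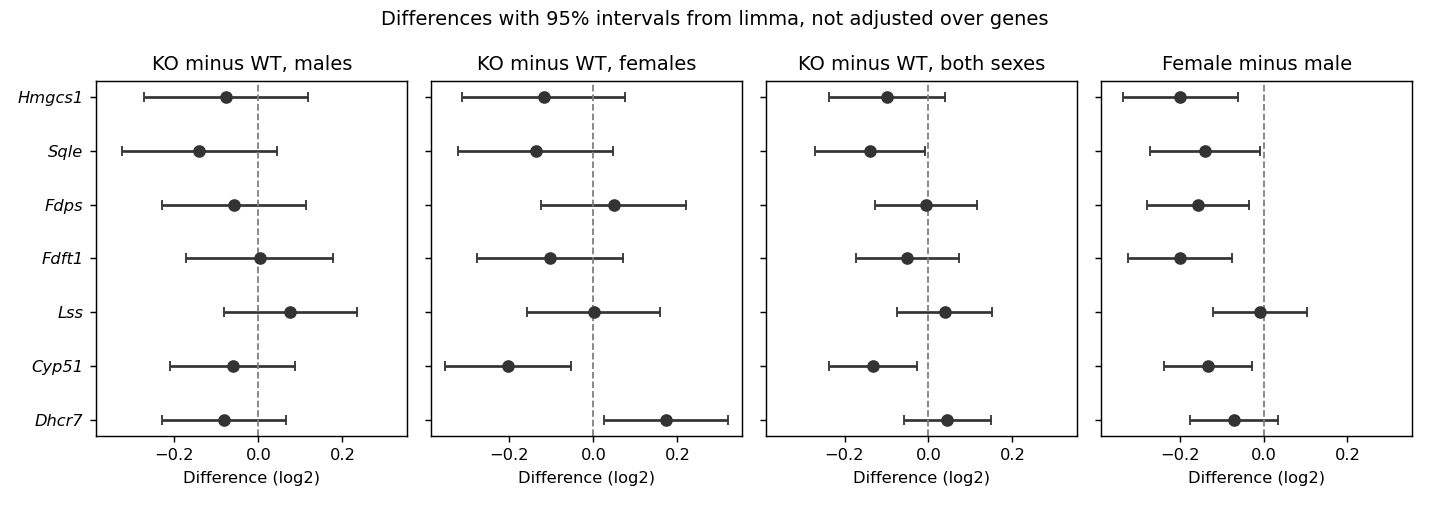
Differences in log2 intensity (horizontal axis) for the 7 enzymes (vertical axis): knockout minus wild type in males, in females and over both sexes, and female minus male over both genotypes. Points are limma estimates and bars their 95% intervals, not adjusted over genes. The intervals of Cyp51 and Dhcr7 lie on opposite sides of 0 in females, and 5 intervals lie below 0 in the comparison of the sexes.

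No enzyme passed the test between the sexes either. All 7 enzymes were lower on average in females than in males, with a median difference of -0.14 against -0.0028 over all genes, where 51.3% of genes were lower in females. By limma 0 of 7 were called, against 0.0361% of all genes. At an unadjusted p under 0.05 there were 5 of 7 (7.93% of all genes), all of them lower in females (4.18% of all genes were lower with such a p). Sqle kept such a p in 11 of 19 settings, with p up to 0.0997, and the other 4 in all 19. Genes of 1 pathway can vary together from mouse to mouse, so these 5 are not 5 separate observations.

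Fdft1 had the smallest p, with 9.66 ± 0.09 (SD, n = 6) in males and 9.46 ± 0.10 (SD, n = 6) in females, a difference of -0.20 (SE 0.06), an unadjusted p of 0.0043 and a limma adjusted p of 0.524. Hmgcs1 stood at 9.33 ± 0.12 in males and 9.13 ± 0.11 in females (SD, n = 6 each), a difference of -0.20 (SE 0.06; limma adjusted p = 0.566). For both genes the ranges of the sexes overlapped when the genotypes were pooled. Fdps differed by -0.16 (SE 0.06; limma adjusted p = 0.6), Sqle by -0.14 (SE 0.06; limma adjusted p = 0.618) and Cyp51 by -0.13 (SE 0.05; limma adjusted p = 0.6). Dhcr7 differed by -0.07 and Lss by -0.01, and the interval of Lss, from -0.12 to 0.10, held 0.

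Split by genotype, the female minus male difference among wild-type mice was -0.21 for Fdps, -0.20 for Dhcr7 and -0.06 for Cyp51, and among knockout mice -0.10, 0.06 and -0.20 in the same order. The interaction given above is the test of this split, and no enzyme passed it. Every wild-type female lay below every wild-type male for 3 of 7 enzymes (Sqle, Fdps and Dhcr7), against 6.19% of all genes. Every knockout female lay below every knockout male for 3 of 7 (Hmgcs1, Fdft1 and Cyp51), against 6.4% of all genes. Some gaps were narrow. In wild type the highest female and lowest male stood at 7.979 and 7.984 for Sqle and at 8.226 and 8.235 for Fdps. In the knockout they stood at 9.162 and 9.167 for Hmgcs1. The gaps were wider for Dhcr7, Fdft1 and Cyp51. The knockout females were the group with the lowest mean for Hmgcs1, Sqle, Fdft1 and Cyp51.

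Across the 12 mice the enzymes could be divided into 5 whose values varied together and 2 whose values did not follow them, a division made after the values were seen and given without a test. Hmgcs1, Sqle, Fdps, Fdft1 and Cyp51 had Pearson correlations of 0.53 to 0.89 in their 10 pairs, with a median of 0.74. The 11 pairs that include Lss or Dhcr7 ran from -0.28 to 0.24, with a median of 0.06. The closest pair was Hmgcs1 and Sqle, the entry step and the epoxidase, with r = 0.89 and Spearman's rho = 0.86 over 12 arrays. Among the 22179 other genes Sqle ranked number 12 by its correlation with Hmgcs1. Sqle and Cyp51 followed with r = 0.86 (rho = 0.83), where Cyp51 ranked number 42 of 22179. Pairs of Fdps with Hmgcs1, Sqle and Cyp51 ranked far lower. Fdps was number 1951 for Hmgcs1, with 8.8% of genes at least as alike, and 925 for Sqle. Cyp51 was number 1119 for Fdps, whereas Fdft1 was number 163 for Fdps (r = 0.77). Without the 2 arrays farthest from the median of the first gene, r was 0.78 for Hmgcs1 and Sqle and 0.90 for Sqle and Cyp51. For comparison, the correlation of Hmgcs1 with a gene of the array had a median of 0.006 and lay between -0.56 and 0.61 for the middle 90% of genes (5th to 95th percentile).

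The values in these correlations share the group differences and the hybridisation of each array. They were therefore also taken after subtracting each group's mean. That step removes the group differences but not what the genes of the same array share. The 10 pairs of the 5 enzymes then ran from 0.13 (Hmgcs1 and Fdps) to 0.81 (Hmgcs1 and Sqle), with a median of 0.61. Fdps and Cyp51 stood at 0.76 and Fdps and Fdft1 at 0.71. Pairs with Lss or Dhcr7 ran from -0.48 (Cyp51 and Dhcr7) to 0.30. Lss had r = 0.11 with Hmgcs1 and 0.03 with Cyp51 before the subtraction.

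**Figure D3:**
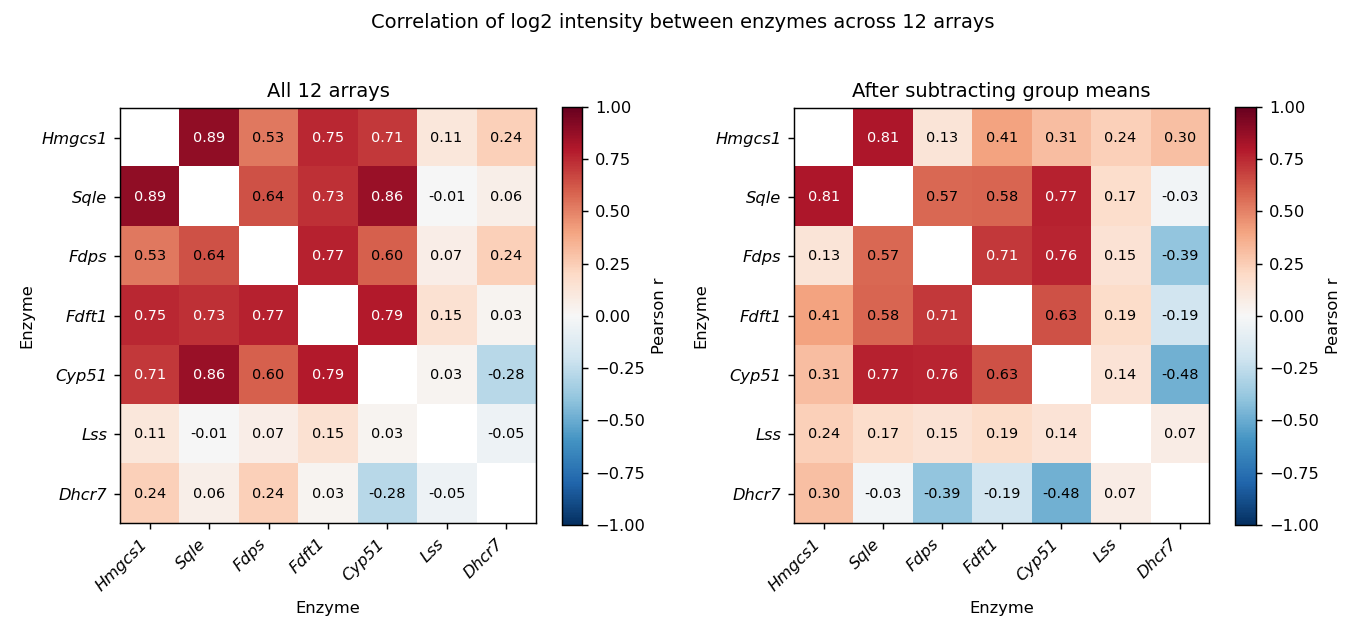
Pearson r of log2 intensity for every pair of the 7 enzymes, over all 12 arrays on the left and after subtracting group means on the right (colour scale from -1 to 1, values in the cells). The block of Hmgcs1, Sqle, Fdps, Fdft1 and Cyp51 holds values from 0.53 to 0.89 on the left, and the rows of Lss and Dhcr7 stay at or below 0.30 in both.

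The mean of the 7 enzymes, each taken relative to its own mean over the arrays, summarises these patterns mouse by mouse. It was 0.09 ± 0.06 (SD, n = 3) in wild-type males, 0.04 ± 0.06 in knockout males, -0.04 ± 0.07 in wild-type females and -0.09 ± 0.04 in knockout females, on the log2 scale. In this order each group overlapped its neighbour: it ran from 0.03 to 0.15 in wild-type males, from -0.02 to 0.10 in knockout males, from -0.13 to 0.0079 in wild-type females and from -0.13 to -0.07 in knockout females. Within each genotype the males and females did not overlap. In wild type the gap was narrow, with 0.029 in the lowest male and 0.0079 in the highest female. The mean of the fatty acid synthesis genes described below did not overlap between the sexes in either genotype. How often other sets of genes separate in this way was not computed. Likeness to the mean of the 7 enzymes was ranked after subtracting group means, among 10382 genes of above-median brightness. Predicted, Riken and small RNA genes were left out. The highest of so many r over 12 arrays are extremes by selection. They belonged to Cyp4v3 and Tmem70 (r = 0.96 each), Cyp27a1 (0.96), Coa5 (0.95), Nid1 (0.94) and Phc1 (0.94). Next came Qrsl1 (0.94), Atp6v0a2 (0.93), Crim1 (0.93) and Sash1 (0.92). Before the subtraction the r of these 10 genes over the 12 arrays was lower for all except Sash1 (0.96), down to 0.50 for Tmem70. Cyp27a1, the sterol 27-hydroxylase, is the 1 gene of these 10 that also stands on a sterol list used here.

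The rest of the sterol pathway was followed through a list of 13 further enzymes, of which 10 were measured. By limma 0 of 10 were called between the genotypes, with 5 lower and 5 higher and a median difference of -0.0001. Ebp, the sterol isomerase that acts after Cyp51, differed by 0.16 (SE 0.05; limma adjusted p = 0.393), the largest of the 10. Hsd17b7, a 3-ketosteroid reductase of the same stretch of the pathway, differed by -0.13 (SE 0.04; limma adjusted p = 0.438), and Sc5d, the desaturase that makes the substrate of Dhcr7, by -0.07 (SE 0.05). Between the sexes 8 of 10 were lower in females, where 51.3% of all genes were, with a median of -0.07 and 0 called by limma. Hsd17b7 (-0.20, SE 0.04; limma adjusted p = 0.391) and Msmo1, the sterol methyl oxidase (-0.16, SE 0.05; limma adjusted p = 0.566), were the 2 of 10 with an unadjusted p under 0.05, against 7.93% of all genes and 4.18% that were lower with such a p.

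Over both sexes, the sterol-sensing machinery was lower in the knockout in 10 of 10 measured genes of 11, where 50.4% of all genes were lower. The median difference was -0.06 and 0 were called by limma. In males 7 of 10 were lower (51.9% of all genes) and in females 9 of 10 (49.4%). Such genes can vary together from mouse to mouse, so these are not 10 separate observations. Insig1, which retains the SREBP escort in the endoplasmic reticulum and is itself an SREBP target, differed by -0.16 (SE 0.05; limma adjusted p = 0.412). Mbtps2, the site-2 protease that releases active SREBP, differed by -0.15 (SE 0.05; limma adjusted p = 0.453), and Erlin2, a membrane protein of the endoplasmic reticulum, by -0.12 (SE 0.04; limma adjusted p = 0.48). Srebf2 differed by -0.05 (SE 0.05; limma adjusted p = 0.782), with 0.05 in males and -0.14 in females. Insig1, Mbtps2 and Erlin2, 3 of 10, had an unadjusted p under 0.05, against 9.26% of all genes.

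Sterol uptake and transfer genes were lower over both sexes in 7 of 10 measured members, where 50.4% of all genes were. The median was -0.05 and 0 were called. Npc1, which moves cholesterol out of lysosomes, differed by -0.11 (SE 0.06), Vldlr, a lipoprotein receptor, by -0.10 (SE 0.05) and Lipa, lysosomal acid lipase, by -0.08 (SE 0.04). Of the 12 measured genes of sterol export and breakdown, 7 were lower, 5 higher and 0 called. Hsd3b7, of bile acid synthesis, differed by 0.17 (SE 0.07; limma adjusted p = 0.532), Nr1h3, the oxysterol receptor LXR alpha, by 0.12 (SE 0.05; limma adjusted p = 0.528) and Abcg1, a cholesterol exporter, by -0.07 (SE 0.04). Cyp46a1, the neuronal 24-hydroxylase through which the brain disposes of cholesterol, differed by -0.04 (SE 0.06), and Apoe, the main lipid carrier made by astrocytes, by -0.06 (SE 0.05).

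Fatty acid synthesis, the arm of SREBP control that Srebf1 serves, was lower over both sexes in 9 of 11 measured members. Over all genes 50.4% were lower. The median of the list was -0.07 and 0 were called by limma. Me1, a malic enzyme that supplies NADPH, differed by -0.19 (SE 0.05; limma adjusted p = 0.335), Acacb by -0.12 (SE 0.05) and Acaca, both acetyl-CoA carboxylases, by -0.11 (SE 0.05). The isoprenoid branch, which leaves the pathway at farnesyl diphosphate for protein prenylation, dolichol and ubiquinone, had 6 of 10 members lower, 4 higher and 0 called by limma. Fnta, a subunit of the prenyl transferases, differed by -0.08 (SE 0.04), Ggps1, which makes geranylgeranyl diphosphate, by -0.07 (SE 0.05) and Rabggtb, a Rab prenyltransferase subunit, by 0.12 (SE 0.08).

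**Figure D4:**
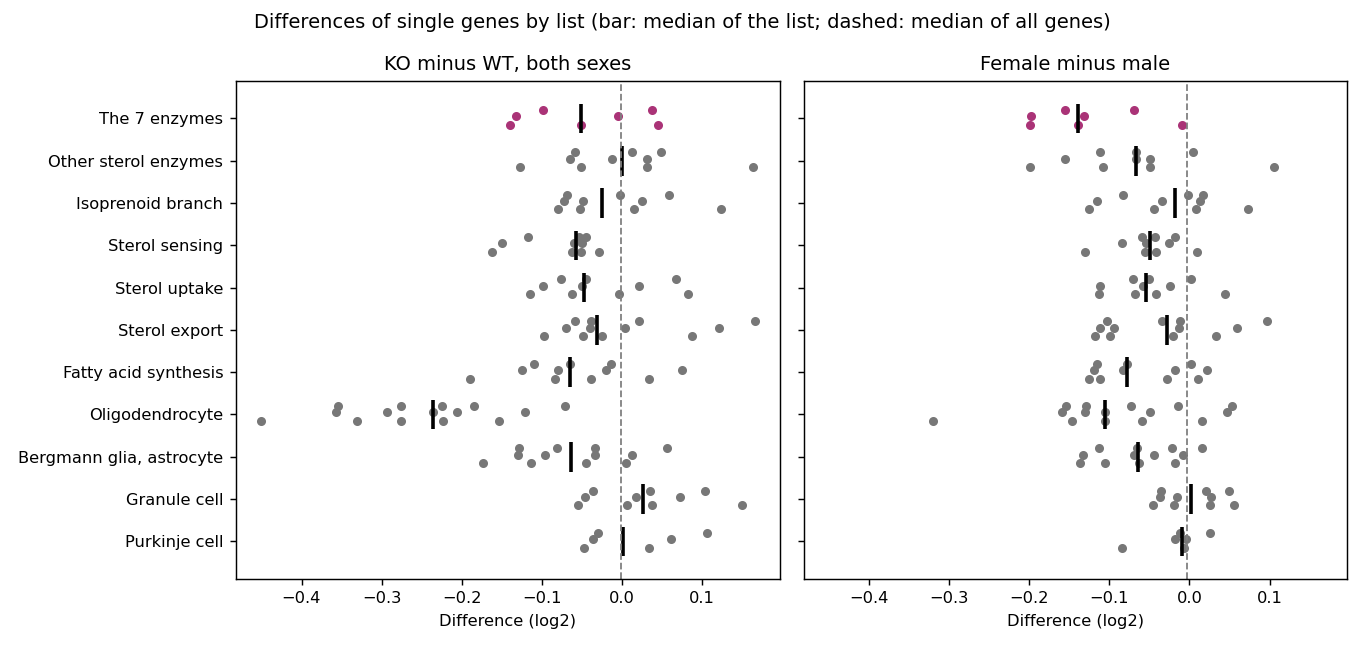
Differences in log2 intensity (horizontal axis) of single genes in each list (vertical axis), knockout minus wild type over both sexes on the left and female minus male on the right. Points are genes, black bars list medians and the dashed line the median of all genes; the bar of the 7 enzymes lies at -0.05 on the left and -0.14 on the right, and that of the oligodendrocyte markers at -0.24 and -0.11.

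Markers of the glia that make most brain cholesterol were also compared. All 15 measured oligodendrocyte markers were lower in the knockout over both sexes, where 50.4% of all genes were, with a median of -0.24. By limma 1 of 15 was called, Opalin (-0.45, SE 0.06, adjusted p = 0.0369), against 0.0225% of all genes. In males 14 of 15 were lower (median -0.14), and 0 had a limma unadjusted p under 0.05, against 5.42% of all genes. In females 15 of 15 were lower (median -0.33), and 11 had such a p, against 8.49%. Opalin differed by -0.19 in males and -0.72 in females (SE 0.08 each). Such markers can vary together from mouse to mouse, so these are not 15 separate observations. Over both sexes Mal, a myelin membrane protein, differed by -0.36 (SE 0.06, limma adjusted p = 0.154). Mbp, myelin basic protein, differed by -0.21 (SE 0.07, limma adjusted p = 0.422). The mean level of the 15 markers, relative to all arrays, was 0.02 to 0.18 in wild-type males and 0.07 to 0.21 in wild-type females. In the knockout it was -0.24 to 0.14 in males and -0.26 to -0.18 in females. The mean of the 7 enzymes was set against the mean of each of the 15 lists. For the oligodendrocyte markers it had r = 0.42 (rho = 0.43) over 12 arrays and -0.003 after subtracting group means. The 4 precursor markers, with Cspg4 at 0.11 (SE 0.08) and Vcan at -0.05 (SE 0.09), had r = -0.08 with the enzymes and -0.91 after the subtraction.

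Bergmann glia and astrocyte markers were lower in the knockout in 9 of 12, against 50.4% of all genes, with a median of -0.06. The enzymes correlated with the mean of these markers at r = 0.77 (rho = 0.71), and at 0.45 after subtracting group means. Values at least as high were found for sterol uptake (r = 0.83) and fatty acid synthesis (0.77). They were somewhat lower for the further sterol enzymes (0.75), sterol sensing (0.70) and sterol export (0.70). After subtracting group means r was 0.74 for sterol uptake, 0.65 for sterol export, 0.62 for microglia and 0.56 for vascular and meningeal markers. The mean level of the Bergmann glia and astrocyte markers was 0.05 to 0.09 in wild-type males and -0.03 to 0.03 in wild-type females. In the knockout it was -0.04 to 0.04 in males and -0.08 to -0.02 in females. Vim differed by -0.13 (SE 0.04; limma adjusted p = 0.393) and the water channel Aqp4 by -0.17 (SE 0.07; limma adjusted p = 0.499). Between the sexes 11 of 12 of these markers were lower in females (median -0.06), as were 12 of 15 oligodendrocyte markers (median -0.11). Over all genes 51.3% were lower in females. Whether a part of the enzymes' differences goes with these cell types was not tested.

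Medians of the neuronal marker lists lay close to 0 between the genotypes. They were 0.03 over 10 granule cell genes, 0.002 over 6 Purkinje cell genes and -0.02 over 7 genes of inhibitory interneurons. Etv1 (0.15, SE 0.05, limma adjusted p = 0.462) and Calb2 (0.10) had the smallest p of the granule cell list. In the Purkinje cell list these were Ppp1r17 (0.11) and Rgs8 (0.06), and in the interneuron list Slc6a5 (-0.09) and Gad2 (-0.07). Gabra6 differed by 0.0071. The difference of Etv1 was no smaller in size than those of Sqle and Cyp51, with the opposite sign. Microglia markers had a median of 0.05, with Cd68 at 0.27 and Fcrls at 0.20, and the vascular and meningeal list one of 0.03, with Cdh5 at 0.16 and Col1a2 at -0.11. Choroid plexus markers were lower in 13 of 13 (median -0.26), against 50.4% of all genes. Ttr stood at -1.15 (SE 1.02), Slco1a5 at -0.26 and Folr1 at -0.36. The enzymes correlated with the mean of the choroid plexus markers at r = 0.04. With that mean as a covariate, the difference between genotypes kept its sign for all 7 enzymes.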

How the data were processed

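Total RNA of 12 cerebella was hybridised to Affymetrix whole-transcript arrays. Per the labels, the authors summarised core exons with RMA in Affymetrix Expression Console; the deposited values are linear intensity values. Transcriptome Analysis Console 3.0 is also named in the submitters' processing notes. Genome build and the authors' own test: not given in the sources used here.

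Of 41345 rows, 23521 carry 1 gene symbol, 1814 several and 16010 none. Rows with 1 symbol were kept, the brightest per gene, and log2 was taken with no further normalization or filter on dim genes. Tests used limma 3.58.1 in R 4.3.3 across all 22180 genes: 4 group means, 1 spread shared over the 12 arrays, eBayes, two-sided, with Benjamini-Hochberg adjustment over all genes and a threshold of 0.05. The test was tried on simulated data. No depth exists for arrays; the 3 arrays per group limit the precision. The labels describe separate mice, 1 array each; replicate numbers only name an array.

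The members and gene lists were chosen with earlier results of these data known. All 7 measured members are named, with the 3 genes of smallest genotype p per pathway list, 2 per cell type list, and the fixed genes Ciz1, Srebf2, Insig1, Cyp46a1, Apoe, Mbp, Ttr and Gabra6. Of 180 list entries, 20 were not analysed here. Msmo1, Calb1 and the group of 5 covarying enzymes were singled out after their values were seen. Correlations are descriptions. Alternatives were other scalings, an intensity trend, a filter on dim genes, another row rule, array weights, a choroid plexus covariate and each array left out.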

Additional observations from a re-analysis of the deposited data

How the results depend on the processing

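Over 19 alternatives, 7 other settings and 12 arrays left out in turn, no difference of the 7 enzymes passed the threshold, and the lowest limma adjusted p was 0.235. Of 665 recomputed differences 635 kept their sign, and the 30 that did not belong to 9 of 35 results. The cause of the changes was not tested. Between the genotypes Fdps reached 3.04e-05 with array medians subtracted. Lss in females was -0.0143 after quantile normalization and -0.0059 with the choroid plexus level as a covariate. The Sqle interaction was -0.0132 after quantile normalization and -0.00125 with array weights, and the sex difference of Lss was 0.0116 after quantile normalization.

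With 1 array left out, Fdps ranged from -0.0375 to 0.0254 over both sexes, from -0.123 to 0.00275 in males and from -0.00317 to 0.083 in females. In males Hmgcs1 ranged from -0.143 to 0.000525 and Fdft1 from -0.0521 to 0.0599. Lss ranged from -0.0731 to 0.0653 in females and from -0.0414 to 0.0278 between the sexes. Without a change of sign, the difference over both sexes ranged from 0.00145 to 0.0707 for Lss, from -0.078 to -0.0219 for Fdft1, from 0.0218 to 0.0692 for Dhcr7 and from -0.131 to -0.0592 for Hmgcs1, and that of Cyp51 in males from -0.118 to -0.0218. The value of Lss was 0.00145 without wild-type female 3. The interaction ranged from -0.119 to 0.0243 for Hmgcs1 and from -0.0644 to 0.079 for Sqle.

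The count of all genes called was more variable. With an intensity trend it was 18 between the genotypes, 26 in females, 2 for the interaction and 15 between the sexes, and among genes of above-median brightness it was 14, 16, 2 and 13. With the choroid plexus covariate it was 3 between the genotypes. With 1 array left out it ranged from 3 to 8 over both sexes, from 2 to 4 in males, from 3 to 7 in females, from 6 to 8 between the sexes and from 0 to 1 for the interaction. The call of Opalin was not recomputed under the alternatives. No paired analysis was possible because the replicate numbers only follow the order of deposit. The 3 mice per group limit the precision.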
